A study of Mus musculus with 40 samples.

Results

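A set of 40 genes that mark adipocytes or act in the storage, release and synthesis of fat was followed through mouse mammary tumors. The genes were listed by symbol, as genes of adipocytes and of fat metabolism. No measured value enters the list, but it was drawn up with earlier results of these data known. Of these 40 genes, 38 were found among the 14318 genes of the RNA-sequencing table, and the other 2, Cidea and Tshr, were not analysed here. The 38 genes comprise the secreted proteins Adipoq, Cfd, Lep and Retn, proteins of the lipid droplet (Plin1, Plin4, Cidec, Adig), genes of fat and sugar uptake (Fabp4, Cd36, Lpl, Aqp7, Slc2a4, Acsl1), genes of lipolysis (Lipe, Pnpla2, Pnpla3, Adrb3), enzymes of triglyceride assembly (Gpd1, Agpat2, Lpin1, Dgat1, Dgat2), genes of fatty acid synthesis (Acly, Acaca, Acacb, Fasn, Elovl6, Scd1, Me1, Thrsp), Pck1 and Pcx, the transcription factors Pparg, Cebpa and Mlxipl, and the enzymes Car3 and Cyp2e1.

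The tumors came from WT female BALB/c mice, lactating mothers whose pups had been removed, that were injected intraductally with luciferase-expressing 4T1 or 66cl4 cells, a pair of mouse mammary tumor lines that serve as models of triple-negative breast cancer. Mice of each model were left untreated or received repeated i.p. doses of 200 µg of an antibody against the immune checkpoint receptor PD-1 (anti-PD-1), 1 mg chitin, or both (chitin + anti-PD-1). Dosing started once tumors had developed, was weekly for anti-PD-1 and more frequent for chitin, and primary tumors were collected at 5 w p.i. The table holds 39 tumors, 19 of the 4T1-based and 20 of the 66cl4-based model, with 5 tumors in each of the 8 groups other than the untreated 4T1 group, which has 4. Untreated 4T1 tumor 3 was removed by the authors for RNA degradation and was not analysed here. Each model is 1 cell line, the number of injected cells differed between the models, and the labels name the samples primary tumors and say nothing of surrounding fat pad.

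The mammary gland lies in a fat pad of white adipocytes. These cells store triglyceride in 1 large droplet, coated by perilipins such as Plin1 and kept large by Cidec, take up fatty acids that Lpl frees from lipoproteins, and release them again through the lipases Pnpla2 and Lipe. They also secrete adiponectin (Adipoq), adipsin (Cfd) and leptin (Lep). Enzymes of fatty acid synthesis such as Fasn, Acly and Scd1 work in adipocytes but also in milk-producing epithelium and in tumor cells.

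Levels are given as normalized counts, reads scaled by the size factor of each tumor, and differences are between group means on the deposited log2-like scale, on which 6.05 stands for 0 reads and differences between genes with few reads are flattened. The tumors had 5105898 to 14800352 reads on all 14318 genes together (median 6590274). Summed normalized counts of 5 epithelial genes (Krt8, Krt18, Epcam, Krt14, Krt5) ran from 12788 to 44288 in 4T1 and from 3341 to 5974 in 66cl4 tumors. Krt8 alone reached at least 3152 in every tumor, so that the 66cl4 sums consist largely of Krt8. The lowest values of Krt18, Epcam, Krt14 and Krt5 were 40.55, 1.12, 2.13 and 0. Of the 5 genes, Krt8 was thus the 1 that was high in every sample labelled as a tumor. The summed level of 6 white adipocyte genes (Adipoq, Plin1, Cidec, Lep, Cfd, Adig) ran from 8.03 to 9411 in 4T1 and from 4.73 to 1505 in 66cl4 tumors. In whole tumor RNA, fewer adipocytes and less of a transcript per adipocyte cannot be told apart.

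Adipoq, which encodes the adipocyte hormone adiponectin, was close to absent in some tumors and abundant in others of the same group. In 4T1 tumors, normalized counts of Adipoq were 3.55, 0, 23.7 and 53.7 without treatment, 928, 0, 170.2, 372 and 329.8 with anti-PD-1, 2.84, 13.9, 64.4, 319 and 209 with chitin and 2.45, 72.1, 13.9, 305 and 164 with chitin + anti-PD-1. The 66cl4 tumors held 1.25, 9.17, 5.28, 1.29 and 18.7 without treatment, 1.28, 101, 51.1, 1.25 and 0 with anti-PD-1, 3.545, 20.1, 0, 0.655 and 6.40 with chitin and 164, 11.4, 8.27, 15.3 and 5.61 with chitin + anti-PD-1. All 8 groups overlapped, and 2 tumors of each model had 0 reads. A median of 64.4 normalized counts in 4T1 stood against 6.01 in 66cl4, and the highest value of each model was 928 in an anti-PD-1-treated 4T1 tumor and 164 in a chitin + anti-PD-1-treated 66cl4 tumor.

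Plin1, the perilipin of the adipocyte droplet, followed the same tumors. In 4T1, it stood at 5.91, 4.69, 19.1 and 52.4 in untreated, 919, 1.34, 116, 312 and 259 in anti-PD-1-treated, 3.79, 9.25, 55.6, 311 and 143 in chitin-treated and 5.725, 96.6, 5.06, 257 and 108 in chitin + anti-PD-1-treated tumors. In 66cl4, the values were 5.01, 20.6, 3.52, 2.58 and 29.4 without treatment, 3.85, 154, 51.1, 1.25 and 1.19 with anti-PD-1, 1.18, 20.9, 2.10, 1.31 and 4.27 with chitin and 187, 13.85, 8.96, 16.6 and 9.54 with both agents. The same tumors as for Adipoq were highest in each model, and every tumor had at least 1 read of Plin1.

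Since most of the genes rose and fell together from tumor to tumor and a few did not, the 250 bases before the annotated start are shown for 2 genes of each kind, Adipoq and Cfd, the complement protease adipsin, which moved together, and Acly and Elovl6, which did not move with them. The sequences are those of RefSeq in GRCm38.p6, read 5′ to 3′ along the gene, with matches to the searched letters in capitals. Adipoq lies on the plus strand (chr16:23146286-23146535), Cfd on the plus strand (chr10:79890603-79890852), Acly on the minus strand (chr11:100528001-100528250) and Elovl6 on the plus strand (chr3:129532136-129532385).
Adipoq: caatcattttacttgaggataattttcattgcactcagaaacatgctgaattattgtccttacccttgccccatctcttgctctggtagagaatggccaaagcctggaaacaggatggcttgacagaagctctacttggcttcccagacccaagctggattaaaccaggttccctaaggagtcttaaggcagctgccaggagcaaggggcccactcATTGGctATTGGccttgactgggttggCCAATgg
Cfd: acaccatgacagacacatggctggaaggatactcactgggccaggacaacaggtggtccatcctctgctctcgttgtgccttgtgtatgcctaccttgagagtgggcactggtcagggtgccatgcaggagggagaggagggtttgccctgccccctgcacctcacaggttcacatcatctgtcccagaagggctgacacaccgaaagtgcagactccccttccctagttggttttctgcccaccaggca
Acly: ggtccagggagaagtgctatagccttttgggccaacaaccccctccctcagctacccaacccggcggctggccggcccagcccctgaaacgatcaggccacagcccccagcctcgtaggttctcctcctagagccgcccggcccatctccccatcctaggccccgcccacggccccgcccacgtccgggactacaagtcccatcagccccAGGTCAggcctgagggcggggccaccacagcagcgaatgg
Elovl6: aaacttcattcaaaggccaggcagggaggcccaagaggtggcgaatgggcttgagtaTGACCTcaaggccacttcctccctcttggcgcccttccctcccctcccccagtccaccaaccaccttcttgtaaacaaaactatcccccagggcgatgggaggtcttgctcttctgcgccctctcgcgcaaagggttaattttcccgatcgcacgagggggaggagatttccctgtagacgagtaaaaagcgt

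Searched on both strands were the TATA box, spelled TATAAA, and the CCAAT box. Also searched was AGGTCA, the hexamer that nuclear receptors bind. The core bound by C/EBP factors was spelled TTGCNNAA and the E box CACGTG. The Adipoq window held CCAAT, on either strand, at -34, -27 and -7, counted from the start, and the Cfd window held none of these strings. AGGTCA was found at -40 before Acly and at -193, on the reverse strand, before Elovl6. No match overlapped another in these windows. Windows were found for 29 of the 38 genes. Among these 29, CCAAT was present in 34.5% against 33.8% of all 32851 windows of the same length, AGGTCA in 24.1% against 14%, CACGTG in 10.3% against 6.02%, TATAAA in 10.3% against 12.4%, and TTGCNNAA in 6.9% against 9.56%. Each of the 29 genes gave 1 window, whereas all windows hold every annotated start, so that a gene with several starts counts more often. The shares are therefore not fully alike, and that of AGGTCA stands for 7 of the 29 genes. A match is a string of letters in the window and says nothing of binding.

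**Figure D1:**
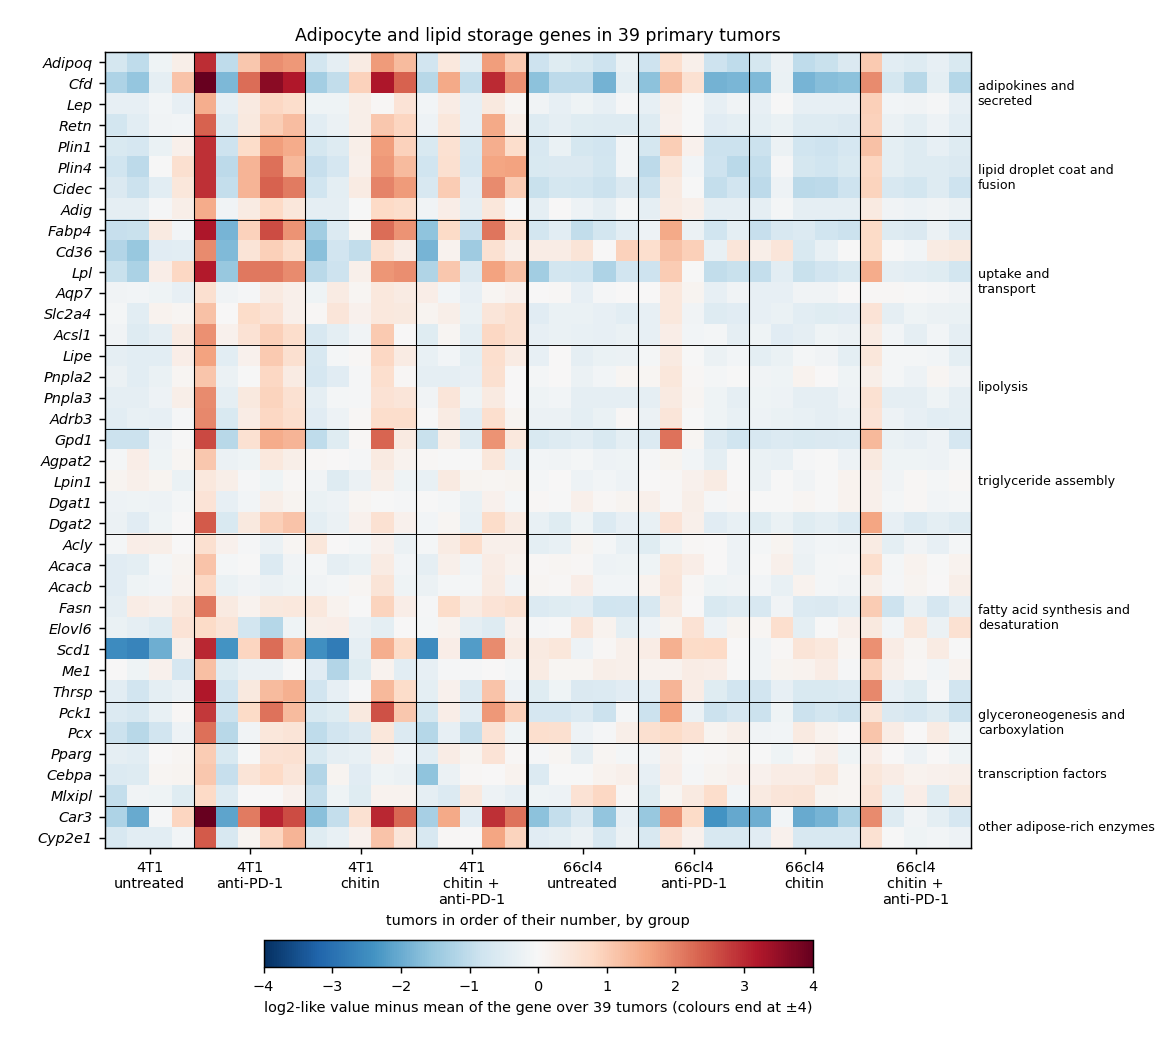
Expression of the 38 genes (lines, ordered by role) in the 39 primary tumors (columns, ordered by model and treatment), as the log2-like value minus the mean of the gene over all tumors. Colours end 4 units above and below that mean. The same columns stand out for nearly all genes of the adipocyte droplet, uptake and secretion, above all anti-PD-1-treated 4T1 tumor 1, while Acly and Elovl6 are pale across tumors.

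The secreted proteins spanned wide ranges. Cfd stood in 4T1 tumors at 23.6, 9.38, 109 and 494 without treatment, 6268, 2.68, 1185, 3333 and 2469 with anti-PD-1, 17.1, 41.6, 410, 2539 and 1309 with chitin and 31.1, 680.4, 43.0, 2118 and 877 with both. In 66cl4 tumors it stood at 6.26, 36.7, 36.9, 1.29 and 103 without treatment, 6.42, 550.3, 312.5, 1.25 and 2.39 with anti-PD-1, 3.545, 122, 1.58, 4.59 and 6.40 with chitin and 907, 66, 31.7, 105 and 29.7 with both agents. Within a single treatment group, anti-PD-1-treated 4T1, Cfd thus ran from 2.68 to 6268. Lep, the hormone leptin, was much rarer, with 0, 0, 1.82 and 0 in untreated, 117, 0, 15.4, 46.9 and 36.7 in anti-PD-1-treated, 0.948, 0.925, 10.2, 4.73 and 24.9 in chitin-treated and 1.64, 13.0, 0, 17.8 and 5.83 in chitin + anti-PD-1-treated 4T1 tumors. It had 0 reads in 5 of 19 4T1 and 9 of 20 66cl4 tumors, and among 66cl4 tumors only chitin + anti-PD-1 tumor 1 (58.0) lay above 9.47. Retn, which encodes resistin, ran from 0 to 441 in 4T1 and from 0.711 to 94.9 in 66cl4 tumors.

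The other droplet genes had the same shape. Cidec, which lets droplets fuse, stood in 4T1 tumors at 14.2, 4.69, 21.9 and 105 without treatment, 1056, 2.68, 285, 679.9 and 540.4 with anti-PD-1, 6.64, 24.1, 86.1, 491 and 383 with chitin and 12.3, 200.4, 20.2, 457 and 196 with chitin + anti-PD-1. Its 66cl4 values were 3.755, 9.17, 8.79, 5.15 and 14.7 without treatment, 5.135, 90.9, 52.3, 2.5 and 7.16 with anti-PD-1, 1.18, 36.25, 1.05, 1.31 and 5.69 with chitin and 172, 12.2, 8.27, 16.6 and 5.61 with both agents. The median was 105 in 4T1 and 7.71 in 66cl4, and the groups overlapped. Plin4 ran from 2.68 to 1153 and from 2.39 to 187, and Adig, which encodes adipogenin, from 0 to 123 and from 0 to 16.0, in the same order. Adig was at 0 reads in 5 4T1 and 9 66cl4 tumors.

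Among genes of uptake, Fabp4, the fatty acid carrier of adipocytes and also of macrophages and small vessels, never fell to 0. In 4T1 tumors it held 159.6, 166, 546.5 and 359 without treatment, 4736, 42.8, 856, 3092 and 1683 with anti-PD-1, 89.1, 234, 423, 2334 and 1670 with chitin and 63.0, 761, 160.5, 2155 and 673 with chitin + anti-PD-1. Its 66cl4 values were 193, 273, 149, 193 and 269.6 without treatment, 334, 1367, 325.5, 184 and 276 with anti-PD-1, 157, 214, 237, 182 and 171 with chitin and 759.5, 246, 234, 326 and 234 with both agents. The lowest 66cl4 tumor (149) thus lay above the lowest 4T1 tumor (42.8), while the highest values were in 4T1. Lpl, the lipase that frees fatty acids from lipoproteins, stood at 46.1, 20.3, 210.4 and 369.6 in untreated, 2369, 9.37, 1060, 1060 and 899 in anti-PD-1-treated, 31.3, 50.9, 199, 807 and 869 in chitin-treated and 24.5, 454, 74.6, 721 and 517 in chitin + anti-PD-1-treated 4T1 tumors. Of the 66cl4 tumors, which ran from 15.02 to 649 with a median of 57.9, the 3 highest were those highest in Adipoq.

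Cd36, a fatty acid transporter shared by adipocytes, endothelium and macrophages, was arranged differently. Its 4T1 values were 70.9, 39.1, 178.5 and 181 in untreated, 1372, 22.75, 447, 650 and 524 in anti-PD-1-treated, 27.5, 123, 91.5, 485 and 375 in chitin-treated and 17.2, 317, 45.5, 484 and 339 in chitin + anti-PD-1-treated tumors. The 66cl4 values were 375.5, 371, 455, 281 and 630 without treatment, 516, 779, 652, 207.5 and 441.5 with anti-PD-1, 354.5, 437, 146, 206 and 274 with chitin and 562, 275, 256, 376 and 405 with both agents. No 66cl4 tumor fell below 146, whereas 8 of 19 4T1 tumors did.

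Slc2a4, the insulin-responsive glucose transporter, was rare but higher in most 4T1 tumors. It stood at 13, 3.13, 24.6 and 21.0 in untreated, 129.8, 17.4, 74.2, 58.0 and 28.5 in anti-PD-1-treated, 19.9, 48.1, 26.4, 44.95 and 41.1 in chitin-treated and 22.9, 30.3, 6.32, 49.7 and 63.0 in chitin + anti-PD-1-treated 4T1 tumors. The 66cl4 tumors held 2.503, 6.88, 7.03, 5.15 and 2.67 without treatment, 5.135, 42.6, 10.7, 1.25 and 2.39 with anti-PD-1, 4.73, 6.44, 3.15, 1.97 and 2.13 with chitin and 55.45, 4.07, 9.645, 7.67 and 6.73 with both agents. Medians were 28.5 and 5.14, and the 2 66cl4 tumors above 10.7 were those highest in Adipoq. Acsl1, which activates fatty acids, ran from 116 to 1151 in 4T1 and from 149 to 332 in 66cl4 tumors, and the glycerol channel Aqp7 from 0 to 32.1 and from 0 to 18.0.

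Pnpla2 and Lipe were present in every tumor. Pnpla2, the first lipase of fat breakdown, ran from 411 to 1706 in 4T1 and from 590.0 to 1022 in 66cl4, and Lipe, the hormone-sensitive lipase, from 129.9 to 1024 and from 171 to 393. Adrb3, the adrenergic receptor that starts lipolysis in mouse fat, was rare, from 0 to 267 and from 1.28 to 45.4, and Pnpla3, a relative of Pnpla2, ran from 0 to 195 and from 0 to 31.1 and had 0 reads in 4 4T1 and 10 66cl4 tumors. Of the enzymes that assemble triglyceride, Gpd1, which makes glycerol 3-phosphate, ran from 1.34 to 897 in 4T1 and from 8.35 to 608 in 66cl4, and Dgat2, an enzyme of the last step, from 18.7 to 812 and from 22.1 to 385. The ranges of Dgat1 (85.7 to 240.3 and 115 to 173), Lpin1 (80.5 to 240.3 and 116 to 219) and Agpat2 (181 to 606 and 151 to 332) were narrow.

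Scd1, the desaturase that makes monounsaturated fatty acids, was spread differently in the 2 models. In 4T1 tumors, Scd1 stood at 382, 338, 620.3 and 3159 without treatment, 23300, 422, 5080, 13498 and 6918 with anti-PD-1, 399, 291, 2141, 7722 and 4796 with chitin and 375, 3331, 493, 10531 and 3489 with chitin + anti-PD-1. In 66cl4 tumors it stood at 3583, 3847, 2388, 2859 and 3154 without treatment, 3389, 7600, 4788, 4888 and 2810 with anti-PD-1, 2466, 2842, 4022, 3717 and 2928 with chitin and 10195, 3384, 2890, 3459 and 2694 with both agents. The 4T1 range reached from 291 to 23300, below and above all 66cl4 tumors, whose range was 2388 to 10195. In the tumors with 0 reads of Adipoq, Scd1 stood at 338 and 422 in 4T1 and at 2810 and 4022 in 66cl4.

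Fasn, fatty acid synthase, was high in every tumor. The 4T1 tumors held 1840, 2912, 2759 and 3242 without treatment, 10558, 3081, 2639, 3163 and 3201 with anti-PD-1, 3199, 2608, 2319, 4525 and 2857 with chitin and 2283, 4049, 3021, 3549 and 3805 with both agents. The 66cl4 tumors held 1566, 1668, 1748, 1305 and 1328 without treatment, 1462, 3098, 2395, 1521 and 1630 with anti-PD-1, 1465, 2146, 1564, 1546 and 1742 with chitin and 4902, 1277, 1894, 1446 and 1798 with both agents. All 4T1 tumors lay at or above 1840, and 3 of the 20 66cl4 tumors reached above 2146.

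Acly, which supplies acetyl-CoA, was the steadiest of the synthesis genes. It stood in 4T1 tumors at 1906, 2430, 2403 and 2047 without treatment, 3176, 2279, 1949, 1698 and 2148 with anti-PD-1, 2798, 2054, 1897, 2270 and 1709 with chitin and 1888, 2582, 3337, 2328 and 2343 with chitin + anti-PD-1. The 66cl4 values were 1504, 1629, 2159, 1905 and 1599 without treatment, 1415, 1779, 2103, 2060 and 1716 with anti-PD-1, 1905, 2205, 1718, 1838 and 1796 with chitin and 2589, 1510, 1836, 1572 and 1920 with both agents. In 4T1, the range was 1698 to 3337, where that of Scd1 was 291 to 23300. Elovl6, an elongase, ran from 143 to 834 and from 309.6 to 786, Me1, which supplies NADPH, from 74.9 to 815 and from 249 to 655, and the carboxylases Acaca and Acacb from 396 to 1556 and 80.4 to 332 in 4T1 and from 518 to 1093 and 96.7 to 244 in 66cl4. Thrsp, a lipogenic gene rich in fat, ran from 0 to 901 in 4T1 and from 0 to 304 in 66cl4.

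Pcx, pyruvate carboxylase, was arranged like Cd36. Its 4T1 values were 65.0, 42.2, 76.5 and 159 in untreated, 1321, 42.8, 169, 312 and 324.5 in anti-PD-1-treated, 52.15, 74.9, 100.3, 309 and 105 in chitin-treated and 41.7, 134, 56.9, 342 and 163 in chitin + anti-PD-1-treated tumors. The corresponding 66cl4 values were 378, 363, 158, 185.5 and 249.6 without treatment, 363, 413, 350.5, 220 and 249 with anti-PD-1, 168, 173, 279, 229 and 199 with chitin and 550.3, 266, 197, 277 and 162 with both agents. No 66cl4 tumor fell below 158, and the median was 105 in 4T1 and 249 in 66cl4. Pck1, which feeds glycerol synthesis in fat, ran from 0 to 732 and from 0 to 244, Car3, a carbonic anhydrase abundant in fat, from 2.68 to 6274 and from 0 to 1165, and Cyp2e1 from 0 to 445 and from 0 to 52.9.

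Pparg, the nuclear receptor that governs adipocyte differentiation, was low, with medians of 28.2 in 4T1 and 25.9 in 66cl4 tumors. Its 4T1 values were 9.46, 7.82, 28.2 and 31.45 in untreated, 135, 2.68, 25.6, 77.6 and 77.95 in anti-PD-1-treated, 2.84, 9.25, 12.2, 41.4 and 21.2 in chitin-treated and 7.36, 47.6, 32.9, 71.25 and 29.15 in chitin + anti-PD-1-treated tumors, and its 66cl4 range was 9.67 to 46.2. Cebpa, a partner of Pparg that myeloid cells also use, ran from 97.3 to 1212 and from 314 to 755. Mlxipl, the carbohydrate-responsive factor of lipogenic genes, ran from 0 to 113 and from 7.67 to 117.

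Per kilobase of annotated exon, the medians in 4T1 tumors were led by Scd1 (646 normalized counts per kb), Cfd (536), Acly (430) and Fasn (281). Those in 66cl4 were led by Scd1 (692), Acly (344), Pnpla2 (231.5) and Cebpa (225.5). The length is that of all annotated exons of a gene together and can exceed that of its main transcript. For Fabp4 (4489 bases) it exceeded the span of the gene. The order of genes is therefore approximate. Cfd was at 33.3 per kb in 66cl4. Adipoq stood at 46.6 and 4.35, Plin1 at 11.9 and 1.502, and Lep at 1.41 and 0.309 per kb in 4T1 and 66cl4, in this order. On this measure, Scd1 and Acly were among the highest of the set in both models, and Lep was among the lowest.

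How far the genes varied together within groups was tested with limma, as the slope of each gene on the deviation of Adipoq from its group mean, over 39 tumors and 14317 genes. A slope is the change of a gene, on the log2-like scale, per unit of Adipoq on that scale. At an adjusted p under 0.05, 33 of 37 genes had a positive slope and 0 a negative one, where 7.25% of all genes were called positive and 3.97% negative (11.2% in all). The median slope was 0.43 over the 37 genes and -0.001 over all genes. The 6 genes with the highest correlation with Adipoq of all 14317 were Plin1, Cfd, Cidec, Car3, Plin4 and Lpl, which are all among the 37. The next gene was the amino acid transporter Slc7a10 (r = 0.95), followed among genes outside the set by Slc22a3, Slc1a3, Mrap and Orm1 (r = 0.93 each).

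Called by role, the slope was positive for 3 of 3 secreted proteins, 4 of 4 droplet genes, 6 of 6 uptake genes, 4 of 4 lipolysis genes, 4 of 5 assembly genes, 6 of 8 synthesis genes, 2 of 2 of Pck1 and Pcx, 2 of 3 transcription factors, and both Car3 and Cyp2e1. Car3 (1.82, SE 0.0745, adjusted p = 1.75e-19) and Cfd (1.80, SE 0.0631, adjusted p = 4.84e-21) changed by more than Adipoq on this scale, which flattens the lower counts of Adipoq. Scd1 (1.42, SE 0.109), Fabp4 (1.25, SE 0.0796), Lpl (1.22, SE 0.0596), Plin4 (1.03, SE 0.0433), Cidec (1.02, SE 0.0399) and Gpd1 (1.02, SE 0.0702) followed. Slopes of Fasn (0.36, SE 0.0733, adjusted p = 0.00132) and Pparg (0.30, SE 0.0382, adjusted p = 8.64e-07) were shallow. Those of Mlxipl (0.20, adjusted p = 0.0846), Lpin1 (0.06, adjusted p = 0.365), Acly (0.04, adjusted p = 0.659) and Elovl6 (-0.0066, adjusted p = 0.972) did not pass.

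**Figure D2:**
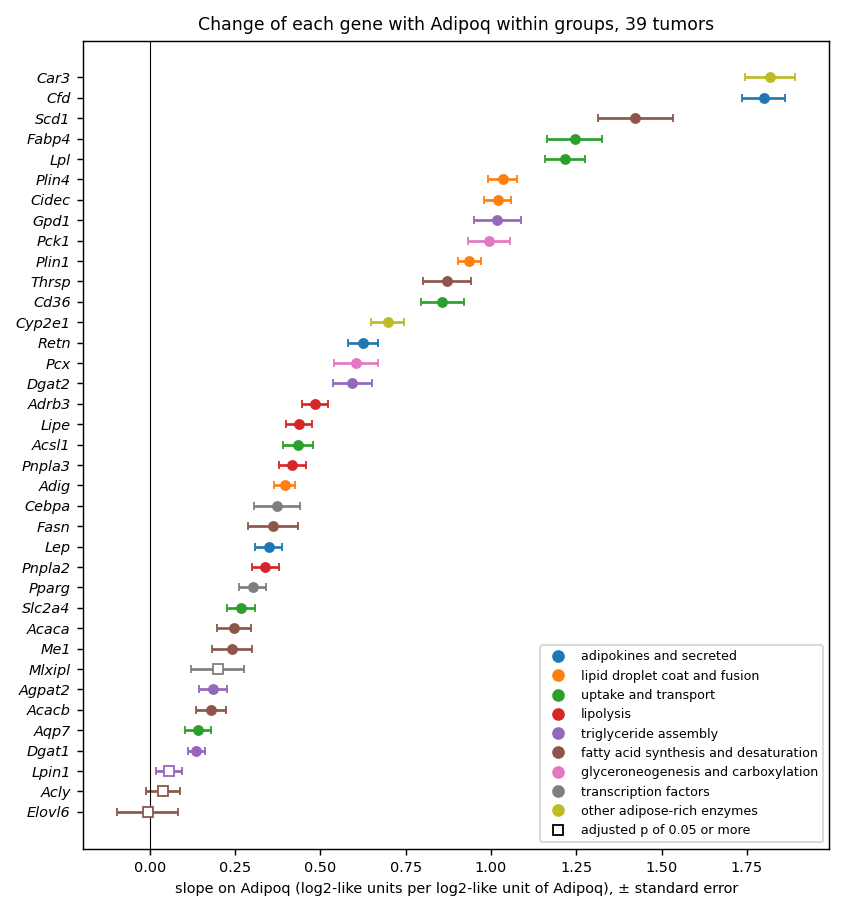
Slope of 37 genes on Adipoq with its standard error, in log2-like units per log2-like unit of Adipoq, over 39 tumors with the 8 group means removed. Genes are ordered by slope and coloured by role, and open squares mark an adjusted p of at least 0.05. Car3 and Cfd lie furthest to the right, and Mlxipl, Lpin1, Acly and Elovl6 are the open squares near 0.

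Of deviations from the group means over 39 tumors, Cfd gave Pearson's r of 0.98 and Spearman's rho of 0.98 with Adipoq, with a permutation p of 1e-05 for both, the smallest that 100000 resamples can give. Without the 2 tumors farthest from the median of Adipoq, r was again 0.98. Scd1 gave r = 0.91 and rho = 0.85 (permutation p = 1e-05 for both), and 0.88 without these tumors. Fasn gave r = 0.65 (permutation p = 0.00036) and rho = 0.61 (permutation p = 0.00032), and 0.62 without them. Acly gave r = 0.14 (permutation p = 0.528) and rho = 0.077 (permutation p = 0.684), and 0.036 without them. These are 4 of 37 relations, whose p-values adjusted over all genes are those of the slopes.

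The 2 tumors were anti-PD-1-treated 4T1 tumors 1 and 2, whose Adipoq deviated by 1.64 and -2.36 from their group mean. Without them, 27 of 37 genes had a called slope, and 220 genes in all were called. Within 4T1 alone, 27 of 37 genes were called among 520 genes, and within 66cl4 alone 23 of 37 among 80 genes.

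Relations differed in size between the models, though the difference was not tested. Scd1 had a slope of 1.62 in 4T1 (r = 0.96) and 0.69 in 66cl4 (r = 0.75, adjusted p = 0.0244), and Cd36 of 0.93 (r = 0.97) and 0.58 (r = 0.73). For Pparg, the slope was 0.36 in 4T1 (r = 0.92) and 0.09 in 66cl4 (r = 0.30, adjusted p = 1). Fasn went the other way, with 0.27 in 4T1 (r = 0.59, adjusted p = 0.0988) and 0.70 in 66cl4 (r = 0.86). Cfd (1.76 and 1.93) and Lpl (1.24 and 1.14) had slopes of similar size. Adipoq itself reached from 6.05 to 10.05 on the log2-like scale in 4T1 and from 6.05 to 8.13 in 66cl4.

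**Figure D3:**
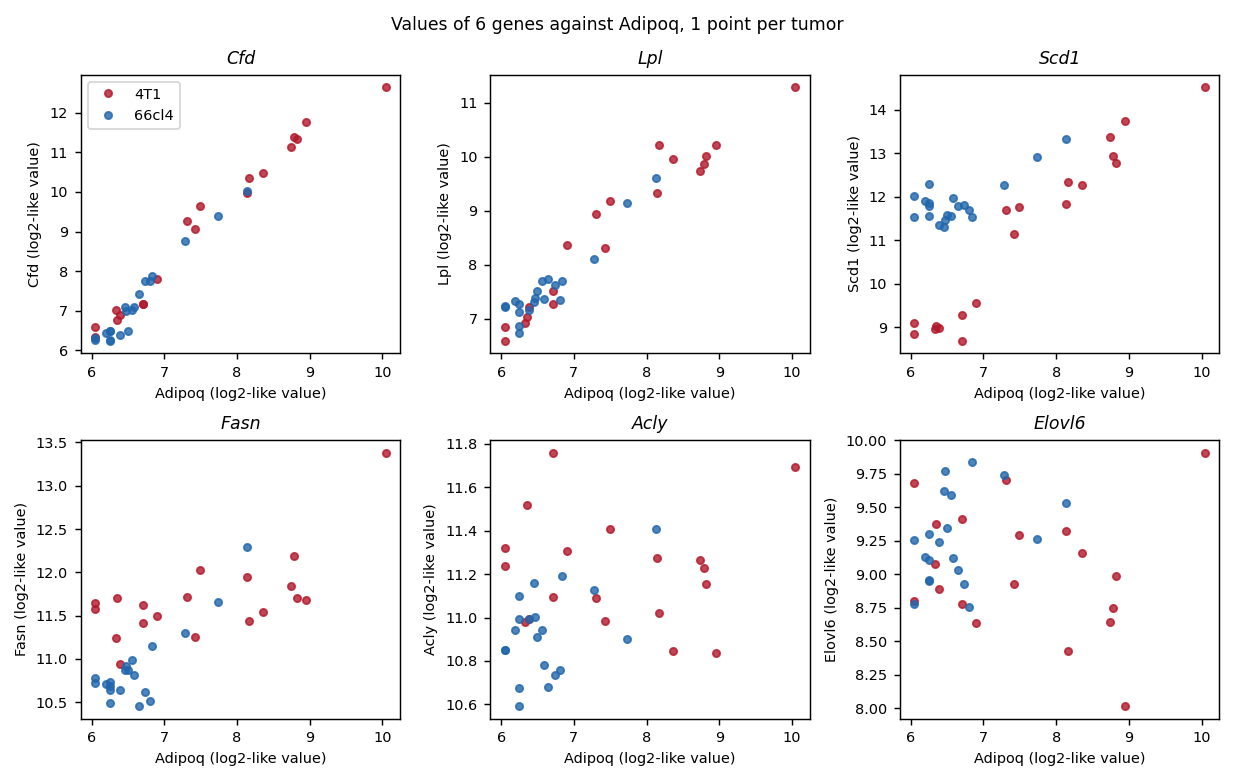
Log2-like values of Cfd, Lpl, Scd1, Fasn, Acly and Elovl6 (vertical axes) against Adipoq (horizontal axis) in 39 primary tumors, 4T1 in red and 66cl4 in blue. Cfd and Lpl follow 1 line in both models, Scd1 of 66cl4 tumors lies above that of 4T1 tumors at low Adipoq, Fasn of 4T1 tumors lies above that of 66cl4 tumors at low Adipoq, and Acly and Elovl6 are level.

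Genes outside the set moved with Adipoq in a graded way. At an adjusted p under 0.05, 14 of 41 other genes of lipid droplets, lipogenesis and adipocytes were called positive and 0 negative. Of all genes, 7.25% were called positive and 3.97% negative. Slopes of the 41 genes ran from -0.124 to 0.543, with a median of 0.063. Among the 14 were the monoglyceride lipase Mgll (0.54), the retinol carrier Rbp4 (0.34), the droplet protein Lgals12 (0.30), the lipase inhibitor Angptl4 (0.30) and seipin, Bscl2 (0.23). Plin2, the perilipin of most cell types, had a slope of -0.0061 that was not called. Of 9 genes of fatty acid oxidation, 3 were called positive, at 0.10 or less.

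Markers of other cells moved with Adipoq in part. The casein genes Csn1s1 (1.00), Csn3 (0.87) and Csn2 (0.78) and the milk fat protein gene Btn1a1 (0.42), 4 of 5 genes of lactating mammary epithelium, had a called positive slope. The remaining gene, Xdh, had a slope of 0.015 that was not called. Its median over all tumors was 1150 normalized counts, against 36.05 for Csn3, the next highest, so that sums of the list consist largely of Xdh. The summed level of these 5 genes was 558 to 3305 in untreated, 2603 to 4737 in anti-PD-1-treated, 309 to 4375 in chitin-treated and 1169 to 3033 in chitin + anti-PD-1-treated 4T1 tumors, and between 883 and 1698 in all 66cl4 tumors. Of 6 genes of adventitial stroma and preadipocytes, 3 were called positive (Pi16 at 0.52, Cd34 at 0.27, Dpp4 at 0.20), of 5 epithelial genes 1 (Krt5 at 0.78), of 6 macrophage genes 1 (Mrc1 at 0.41), of 6 endothelial genes 2 (Pecam1 at 0.23, Tek at 0.23), and of 3 brown adipocyte genes 1 (Cox8b at 0.32). None of 10 skeletal muscle genes was called. Of all genes, 7.25% were called positive. In lists this small, the single calls among epithelial, macrophage and brown adipocyte genes cannot be told from that share. Whether these cells have a part in the values of the lipid genes was not tested.

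The comparison of the models asked in which tumors the genes were higher, over the 4 treatment groups of each. By limma over all 39 tumors, 26 of 38 genes differed at an adjusted p under 0.05, where 78.8% of all genes did, so that the set was not called more often than other genes. Of these 26, 21 were higher in 4T1 (40.8% of all genes) and 5 lower (38% of all genes), and the median difference was 0.33 against 0.015 over all genes. All 4 secreted and all 4 droplet genes were higher in 4T1, as were 4 of 6 uptake genes. Of 8 synthesis genes, 2 were higher and 1 lower.

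Adipoq was higher in 4T1 by 0.90 (SE 0.261, adjusted p = 0.00231), with means of 7.52 and 6.62, Cfd by 1.79 (SE 0.478, adjusted p = 0.00102), Cidec by 1.18 (SE 0.272, adjusted p = 0.000201) and Car3 by 1.52 (SE 0.487, adjusted p = 0.00514). The smallest adjusted p-values belonged to Slc2a4 (0.51, SE 0.0927, adjusted p = 6.75e-06) and Fasn (0.80, SE 0.145, adjusted p = 7.85e-06). Lower in 4T1 were Cd36 (-0.66, SE 0.243), Pcx (-0.58, SE 0.185), Mlxipl (-0.39, SE 0.128), Me1 (-0.34, SE 0.11) and Dgat1 (-0.11, SE 0.0512). Scd1 differed by -0.84 (SE 0.406, adjusted p = 0.0564) and Pparg by 0.02 (SE 0.0975, adjusted p = 0.84), which did not pass. With limma-voom on the recovered reads, 18 of 38 genes were called, 12 higher and 6 lower, where limma-voom called 78.4% of all genes. Those that no longer passed were Cfd (adjusted p = 0.0614), Plin1 (0.0639), Lpl (0.0697), Car3 (0.0837), Adipoq (0.0851), Plin4 (0.0884), Fabp4 (0.106), Adrb3 (0.125) and Cyp2e1 (0.126), and Scd1 passed (-0.99, adjusted p = 0.043). With array weights, Me1 (adjusted p = 0.0915), Mlxipl (0.0953) and Dgat1 (0.191) did not pass, while Lipe, Gpd1 and Thrsp newly passed. After quantile normalization, Dgat2 (0.0667), Adrb3 (0.137) and Lep (0.142) did not pass, while Scd1 did. Dgat1 lost its call in 19 of 39 analyses that left out 1 tumor, Fabp4 in 6 and Lep in 5. In such analyses Lipe newly passed in 8, Scd1 in 7, and Aqp7, Thrsp, Gpd1, Cebpa and Elovl6 in 4 or fewer.

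Since Adipoq itself differed between the models, the comparison was also made with the level of Adipoq in each tumor as a covariate, a choice made after the values had been seen. Of 37 genes, 18 were then called, 4 higher and 14 lower in 4T1, where 75.9% of all genes were called, 39% higher and 37% lower. Higher in 4T1 at a given Adipoq were Fasn (0.47, SE 0.13, adjusted p = 0.00148), Slc2a4 (0.27, SE 0.0719), Cidec (0.27, SE 0.0708) and Acly (0.25, SE 0.0877). Lower were Scd1 (-2.12, SE 0.194, adjusted p = 7.69e-12), Cd36 (-1.43, SE 0.112, adjusted p = 1.55e-13), Pcx (-1.13, SE 0.115, adjusted p = 1.13e-10), Cebpa (-0.60, SE 0.12), Mlxipl (-0.57, SE 0.137) and Me1 (-0.55, SE 0.105), and by less than 0.5 Gpd1, Thrsp, Acaca, Fabp4, Pnpla2, Pparg, Dgat1 and Acacb. Cfd (0.18, adjusted p = 0.147), Plin1 (-0.09, adjusted p = 0.194), Car3 (-0.11, adjusted p = 0.456) and Lpl (-0.03, adjusted p = 0.80) no longer passed. This fit takes the slope on Adipoq to be the same in both models, whereas the slopes estimated within each model were unequal for Scd1, Cd36, Pparg and Fasn, a difference that was not tested. Macrophage genes, which were lower in 4T1 (6 of 6, by 0.67 to 2.70) and summed to 4600 to 28409 normalized counts in 4T1 and 22407 to 40437 in 66cl4 tumors, moved with the model too, and their part in the values of Cd36, Cebpa and Fabp4 was not tested.

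**Figure D4:**
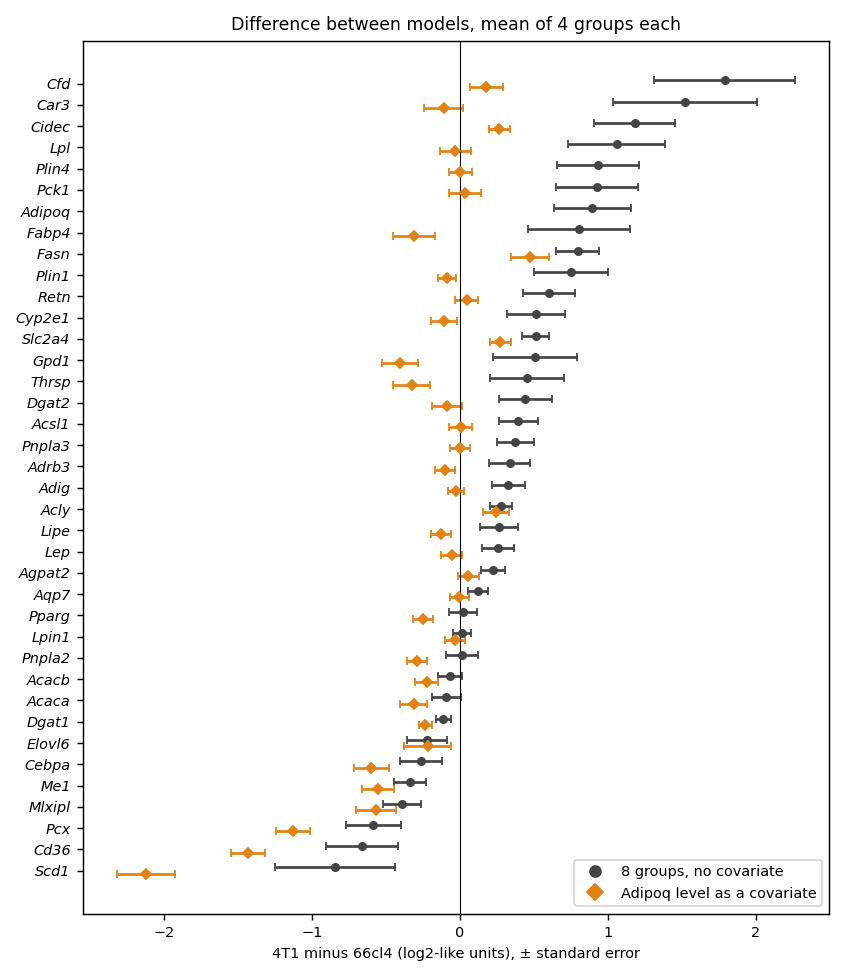
Difference between 4T1 and 66cl4 tumors of each gene in log2-like units with its standard error, without (grey) and with (orange) the level of Adipoq as a covariate, over 39 tumors. Values right of 0 are higher in 4T1. With the covariate, Cfd, Car3, Lpl, Plin1 and Plin4 move close to 0, Fasn, Slc2a4, Cidec and Acly stay to the right, and Scd1 (-2.12), Cd36 (-1.43) and Pcx (-1.13) lie furthest to the left.

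Between untreated tumors alone, 4 of 4T1 and 5 of 66cl4, 5 of 38 genes differed, where 55.8% of all genes did. Fasn was higher in 4T1 by 0.75 (SE 0.304, adjusted p = 0.035), where 28.7% of genes were called higher. Lower, where 27.1% of genes were called, were Cd36 by -1.30 (SE 0.507, adjusted p = 0.029), Pcx by -0.996 (SE 0.387, adjusted p = 0.0286), Mlxipl by -0.66 (SE 0.267, adjusted p = 0.0358) and Dgat1 by -0.25 (SE 0.107, adjusted p = 0.0454). The difference of Scd1 was -1.90 (SE 0.847, adjusted p = 0.055), and it passed with only the compared groups (0.00665), array weights (0.0239), the block on tumor numbers (0.0434), quantile normalization (0.0451) and median centring (0.0495). Adipoq (0.19, SE 0.545, adjusted p = 0.784), Plin1 (0.16, SE 0.52) and Cfd (0.70, SE 0.998) had errors larger than their differences. None of the 5 calls held under every alternative. Cd36, Pcx and Mlxipl did not pass with limma-voom (adjusted p of 0.109, 0.0642 and 0.0788), Fasn, Mlxipl and Dgat1 not with array weights (0.163, 0.0867 and 0.0983), Fasn and Mlxipl not with the block (0.0523 and 0.0521), and Fasn not after quantile normalization (0.0819). Leaving out single tumors ended the call of Dgat1 for 7 tumors, of Fasn and Pcx for 5 each, of Mlxipl for 4 and of Cd36 for 3.

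The treatment comparisons asked whether anti-PD-1, chitin or both changed the genes within a model. By limma, 0 of 38 genes and 0 of 14318 genes in all (0%) passed in any of the 8 comparisons within a model, and limma-voom also called 0 genes in each. The comparisons with untreated tumors share these tumors. p-values measure the spread between tumors. Mice were caged individually, but cells were injected into a pair of glands and the labels do not tie tumors to mice, so that tumors of a group may share a mouse. No litter, date or batch is given.

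The largest differences were between anti-PD-1-treated and untreated 4T1 tumors, where 37 of 38 genes had a higher mean with anti-PD-1 and 24 an unadjusted p under 0.05, against 8.89% of all genes (1273). With limma-voom, 7 had an unadjusted p under 0.05, against 7.75% of all genes. The median difference was 0.89 over the 38 genes and -0.001 over all genes. Adipoq differed by 1.75 (SE 0.67, adjusted p = 0.518), from a mean of 6.66 ± 0.56 (SD, n = 4) in untreated to 8.41 ± 1.48 (SD, n = 5) in anti-PD-1-treated tumors. Cfd differed by 2.85 (SE 1.2, adjusted p = 0.531), Scd1 by 2.73 (SE 1.13, adjusted p = 0.531), Car3 by 2.57 (SE 1.19, adjusted p = 0.548), Cidec by 1.91 (SE 0.72, adjusted p = 0.518) and Lep by 0.88 (SE 0.253, adjusted p = 0.517). Elovl6, the 1 gene with a lower mean, differed by -0.0019.

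Within the anti-PD-1-treated 4T1 group lay both the tumor with the most and a tumor with the least of these transcripts. Tumor 1 held 928 normalized counts of Adipoq, 6268 of Cfd and 23300 of Scd1, and tumor 2 held 0, 2.68 and 422. Without tumor 2, 80 genes were called, 1 of them of the set, Lep (1.12, adjusted p = 0.0297), and without tumor 1 the difference of Adipoq was 1.34. When each 4T1 tumor was weighted by its own spread (array weights), 22 of the 38 genes were called, all higher. Of all genes, 6.7% were called, 4.05% higher. The weights of this fit are not given here, but in a fit over all 39 tumors tumor 2 had the lowest weight (0.181). The 5 genes of lactating epithelium had higher means in the same comparison, by 0.617 to 1.99 (median 1.95), and 0 were called. Their median summed level, which consists largely of Xdh, was 3350 with anti-PD-1 and 1284 without treatment, and their part was not tested.

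In the other 4T1 groups, Adipoq differed from untreated tumors by 0.86 with chitin (SE 0.67) and by 0.82 with chitin + anti-PD-1 (SE 0.67), both with an adjusted p of 1, and reached means of 7.53 ± 1.04 and 7.48 ± 0.99 (SD, n = 5). At an unadjusted p under 0.05 stood 1 gene with chitin, Aqp7 (0.39), against 2.77% of all genes, and 0 genes with both agents, against 2.56%, and limma-voom gave 1 and 0. The chitin-containing 4T1 groups against the other groups gave a difference of -0.03 for Adipoq (SE 0.46, adjusted p = 0.995) and 0 genes at an unadjusted p under 0.05 by limma and limma-voom, against 7.28% of all genes.

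In 66cl4, Adipoq had means of 6.47 ± 0.24 in untreated, 6.71 ± 0.75 in anti-PD-1-treated, 6.39 ± 0.30 in chitin-treated and 6.91 ± 0.69 in chitin + anti-PD-1-treated tumors (SD, n = 5), and its differences from untreated tumors were 0.24, -0.08 and 0.44 (adjusted p of 0.95, 0.953 and 0.651). At an unadjusted p under 0.05 stood Lpin1 with anti-PD-1 (0.24, 5.36% of all genes), Cebpa with chitin (0.30, 11.4% of all genes), and Cebpa (0.30), Lpl (0.88) and Retn (0.42) with chitin + anti-PD-1 (10.6% of all genes). Their adjusted p-values lay between 0.35 and 0.895, and limma-voom put 1 gene of the set at an unadjusted p under 0.05 in each of these comparisons. In the chitin-containing 66cl4 groups against the others, Cebpa (0.26, adjusted p = 0.172) and Cd36 (-0.39, adjusted p = 0.289) stood at an unadjusted p under 0.05, against 15.6% of all genes.

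The chitin-containing minus other groups difference was compared between 4T1 and 66cl4 over all 8 groups. Limma called 14 genes (0.0978%), 0 of them of the set, and limma-voom 17, again 0 of the set, and at an unadjusted p under 0.05 stood 1 gene of the set by either tool, against 13.2% of all genes. This gene, Cebpa, with a difference of -0.44 in 4T1 and 0.26 in 66cl4, differed by -0.70 (SE 0.282, adjusted p = 0.263). For Adipoq, the difference of differences was -0.09 (SE 0.522, adjusted p = 0.965).

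**Figure D5:**
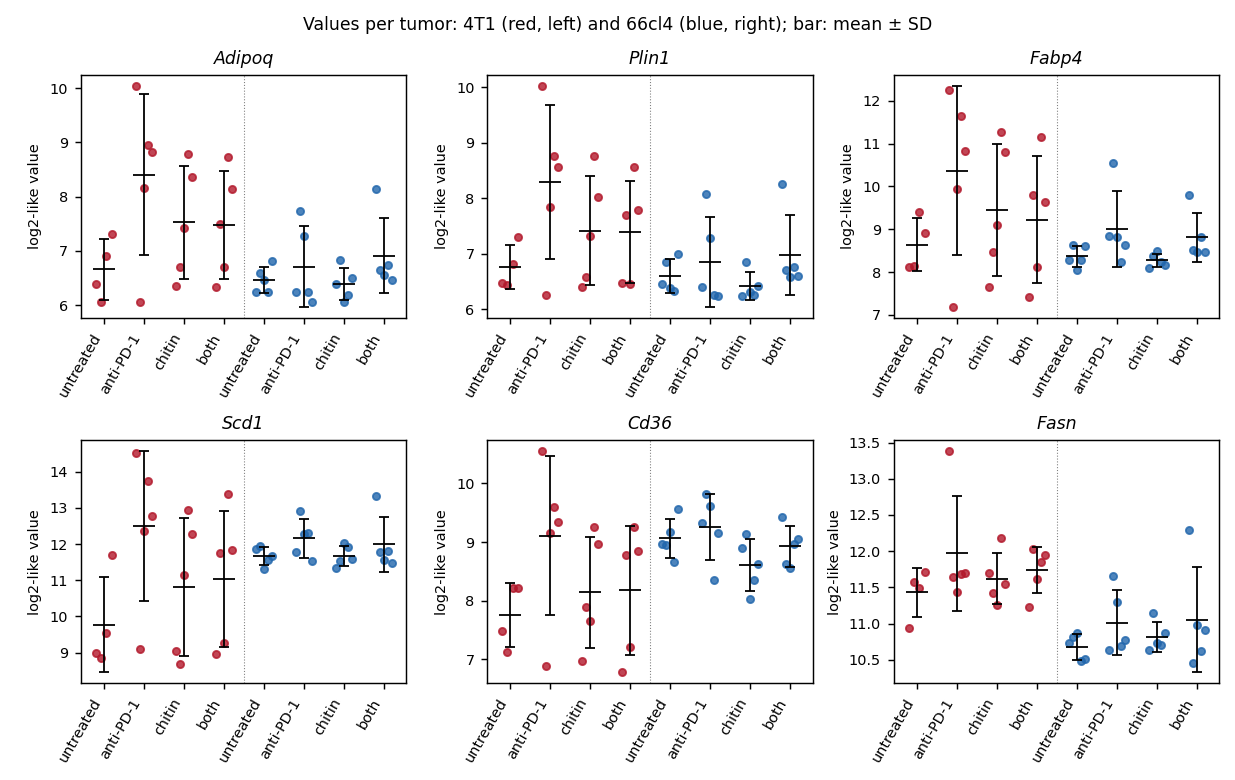
Log2-like values of Adipoq, Plin1, Fabp4, Scd1, Cd36 and Fasn in each primary tumor of the 8 groups, 4T1 in red and 66cl4 in blue, with the mean and SD of each group ("both" stands for chitin + anti-PD-1). The points of the groups of a model overlap in each panel, and the anti-PD-1-treated 4T1 tumors span the widest range of Adipoq (6.05 to 10.05). In every panel, the 66cl4 tumors span a narrower range than the 4T1 tumors. For Scd1, these ranges are 11.30 to 13.33 in 66cl4 and 8.69 to 14.52 in 4T1.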

How the data were processed

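RNA-sequencing values of 39 primary tumors were used, with no column left out. Per the labels and the paper's methods, the authors prepared stranded libraries with TruSeq chemistry, mapped them to mm10 (HISAT2), counted by gene and strand with summarizeOverlaps (intersection non-empty), dropped genes without more than 10 reads in at least 10% of cases and deposited the variance stabilizing transformation of DESeq2, a log2-like scale. Tool versions and the annotation are not given in the sources used here. The transformation was inverted from its lowest value (6.05, 0 reads). Reads were whole within 0.001 for 100% of values, and served for depth, normalized counts and limma-voom. Precision is given as the spread between tumors. Low counts have counting error as well, and no molecular identifiers were used, so that reads are not independent molecules.

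Tests on the deposited values used limma (version 3.58.1, R 4.3.3) (lmFit, contrasts.fit and eBayes, allowing for a trend of the variance with the mean), without a pseudocount, with Benjamini-Hochberg adjustment over all genes and an adjusted p of 0.05 as the threshold. Treatments were compared within each model, and models over all 8 groups. The slope on Adipoq added the deviation of Adipoq from its group mean as a covariate, and correlations were tested by permuting deviations within groups 100000 times. The procedure was tested on simulated data. Alternatives were a filter that dropped the 25% of genes lowest in mean, no trend, only the compared groups, both models in 1 fit, quantile normalization, median centring, limma-voom, array weights, a block on tumor numbers, single models, leaving out the 2 tumors farthest in Adipoq or each tumor in turn, and, added after seeing the data, Adipoq as a covariate between models. Exon lengths came from the GENCODE annotation, as the union of the exons of each gene, and promoters from RefSeq for GRCm38.p6. Python 3.11.15, numpy 2.4.6, pandas 2.3.3, scipy 1.17.1 and matplotlib 3.10.9 were also used.

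The 40 genes and all other lists were chosen with earlier results of these data known. All 40 could be named, genes of the marker and lipid lists as counts with values for those past the threshold or needed beside a result, and the 5 genes outside the set with the highest correlation with Adipoq. Markers of other cells were lists of 3 to 10 measured genes. The protein, flow cytometry and histology data of the study were not analysed here.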

Additional observations from a re-analysis of the deposited data

Results flagged for a closer look

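In groups of 4 or 5 tumors, 1 tumor lay apart from the rest of its group by Dixon's criterion at the 95% level in 44 of 304 sets (38 genes in 8 groups). Chance gives about 1 in 20 for normally spread values, a rate that does not hold for genes at 0 reads: in 10 sets at least 1 of the tumors it lay apart from had 0 reads, and in 3 of these all of them had (Lep in untreated 4T1, Lep and Adig in chitin-treated 66cl4 tumors). Genes of the set vary together, so that the sets are not independent. Values are log2-like.

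Chitin + anti-PD-1-treated 66cl4 tumor 1 was the highest of its group for 22 genes, with 13.33 for Scd1, 12.30 for Fasn, 10.34 for Car3, 10.02 for Cfd, 9.79 for Fabp4, 9.60 for Lpl, 8.99 for Dgat2, 8.83 for Agpat2, 8.74 for Thrsp, 8.66 for Gpd1, 8.26 for Plin1, 8.25 for Plin4, 8.18 for Cidec, 8.13 for Adipoq, 7.69 for Retn, 7.42 for Pck1, 7.36 for Lep, 7.33 for Slc2a4, 7.30 for Cyp2e1, 7.21 for Adrb3, 7.02 for Pnpla3 and 6.75 for Adig. This tumor had 8822204 reads. Chitin-treated 66cl4 tumor 2, with 9008858 reads, was the highest of its group for 7 genes, with 7.88 for Cfd, 7.10 for Cidec, 6.88 for Cyp2e1, 6.85 for Plin1, 6.74 for Pck1, 6.37 for Lep and 6.33 for Adig. Anti-PD-1-treated 66cl4 tumor 2 (7745140 reads) was the highest for Fabp4 (10.55) and Pck1 (8.51). In untreated 66cl4 tumors, tumor 5 was the highest for Plin4 (7.29), tumor 2 for Retn (6.43) and Thrsp (6.65), and tumor 3 the lowest for Aqp7 (6.05).

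In 4T1, anti-PD-1-treated tumor 1 was the highest for Fasn (13.38), Me1 (9.88) and Acacb (8.83), and tumor 2 of that group the lowest for Cebpa (8.39) and Lpl (6.59). Chitin + anti-PD-1-treated 4T1 tumor 1 was the lowest for Me1 (8.35) and Cebpa (7.71). Untreated 4T1 tumor 4 was the highest for Lep (6.29) and tumor 5 for Lipe (8.84). The part of adipose tissue, depth or treatment in these values was not tested.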

How the results depend on the processing

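Apart from single tumors left out, 182 counts of calls stayed within 1.5 times their value and 1041 differences of single genes kept their direction and side of the threshold, while 40 newly passed, 54 no longer passed and 37 changed sign. Counts of all genes changed as follows. With array weights, they were 960 for 4T1 anti-PD-1, 297 and 185 for the chitin-containing groups of 4T1 and 66cl4, 1004 for the chitin-by-model interaction (the chitin difference in 4T1 minus that in 66cl4) and 307 for the slope. With both models fitted together, they were 60 for 4T1 anti-PD-1, 3 for 4T1 chitin + anti-PD-1, 58 for the chitin-containing 4T1 and 1 for the chitin-containing 66cl4 groups. The low filter gave 6 for the chitin-containing 66cl4 groups, 8 for the interaction and 979 for the slope, quantile normalization gave 39 and Adipoq as a covariate 103 for the interaction. The slope gave 520 genes in 4T1 only, 80 in 66cl4 only and 220 without the 2 farthest tumors. Its split of calls into positive and negative was 1038 and 569, but 652 and 592 after quantile normalization and 862 and 814 after median centring.

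Of the set, the low filter tested fewer genes and called 14 of 22 between models (78.9% of all filtered genes) and 18 of 21 for the slope (9.12%). Array weights called 22 for 4T1 anti-PD-1, 1 for the interaction and 3 between untreated tumors, where limma-voom called 2, only the compared groups 7, and Adipoq as a covariate 7. After quantile normalization, 0 genes were higher and 5 lower between untreated tumors. The difference of Scd1 between models over all groups passed after quantile normalization (adjusted p = 0.0416), median centring (0.0481), with the block (0.0466) and with limma-voom (0.043).

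Tumor numbers were shared by groups. Tumors of different groups with the same number had r of -0.392 to 0.447 in 4T1 (median -0.017) and -0.298 to 0.539 in 66cl4 (median 0.026). Those with different numbers had r of -0.568 to 0.681 (median 0.004) and -0.494 to 0.525 (median -0.014). No pairing by number was thus seen, but these values cannot show whether equal numbers share a cohort or a processing step. With the replicate block, the counts of genes were 16 for the chitin-containing 66cl4 groups, 1 for 4T1 chitin + anti-PD-1, 2 for 66cl4 chitin, 7 for 66cl4 chitin + anti-PD-1 and 104 for the interaction.

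Differences between models changed sign for Acacb with array weights (0.0068), for Pparg with limma-voom (-0.10), for Lpin1, Pparg and Pnpla2 with quantile normalization (-0.026, -0.12 and -0.015) and median centring (-0.0081, -0.0019 and -0.0088), and with Adipoq as a covariate for Plin1 (-0.086), Adrb3 (-0.098), Fabp4 (-0.31), Aqp7 (-0.0029), Car3 (-0.11), Cyp2e1 (-0.11), Lpin1 (-0.033), Gpd1 (-0.40), Lep (-0.055), Lipe (-0.13), Lpl (-0.031), Pparg (-0.25), Thrsp (-0.33), Adig (-0.025), Pnpla2 (-0.29) and Dgat2 (-0.089). For Adipoq, the chitin-containing 4T1 groups gave 0.42 with limma-voom and 0.015 with the block, the 66cl4 groups -0.056 and the interaction 0.42 with limma-voom. Elovl6 with anti-PD-1 in 4T1 gave 0.20 with array weights and 0.083 with the block, and Acly -0.00086 after median centring. The slope of Acly was -0.0048 in 4T1 only, and that of Elovl6 0.0053 after quantile normalization, 0.14 with array weights, 0.037 with the block, 0.20 in 66cl4 only and 0.025 without the 2 farthest tumors. The cause of these changes was not tested.

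Leaving out each tumor in turn, the counts of genes ran from 0 to 80 for 4T1 anti-PD-1, 0 to 1 for the chitin-containing 4T1 groups, 0 to 25 for 66cl4 chitin, 0 to 3 for 66cl4 chitin + anti-PD-1, 0 to 269 for the chitin-containing 66cl4 groups (both highest without untreated 66cl4 tumor 3), 0 to 677 for the interaction, and 212 (without anti-PD-1-treated 4T1 tumor 2) to 2412 (without chitin-treated 4T1 tumor 2) for the slope. Of the set, 23 to 30 genes were called between models, 1 to 6 between untreated tumors, 29 to 34 for the slope, and 0 to 1 for 4T1 anti-PD-1 and for the interaction. Signs of single genes changed within these ranges: Adipoq -0.33 to 0.17 and -0.094 to 0.19 for the chitin-containing 4T1 and 66cl4 groups, -0.012 to 0.41 for 66cl4 anti-PD-1, -0.19 to 0.0080 for 66cl4 chitin, -0.38 to 0.11 for the interaction and -0.025 to 0.40 between untreated tumors; with anti-PD-1 in 4T1, Acacb -0.043 to 0.26, Acly -0.12 to 0.098, Elovl6 -0.23 to 0.24, Lpin1 -0.041 to 0.13 and Me1 -0.082 to 0.33; between models, Lpin1 -0.0081 to 0.042, Pnpla2 -0.033 to 0.056 and Pparg -0.021 to 0.080; for the slope, Acly -0.0081 to 0.068 and Elovl6 -0.10 to 0.12. Slopes of Aqp7 and Me1 lost their call without anti-PD-1-treated 4T1 tumor 1 or 2, and those of Cebpa and Agpat2 without tumor 2. Genes with few reads are flattened on the log2-like scale, which limits differences in tumors with little adipocyte RNA.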
